A study of Homo sapiens with 6 samples.

Results

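The 10 genes followed here belong to polyamine synthesis and breakdown and were read on 6 Affymetrix Human Genome U219 arrays of LNCaP cells, an established line of androgen-responsive human prostate adenocarcinoma. They were chosen by symbol: every probe set whose only listed gene is ODC1, AMD1, SRM, SMS, AZIN1, SAT1, SMOX, PAOX, OAZ1 or OAZ2 was taken, which gave 36 probe sets for 10 genes of the 18239 genes measured. Cells given urolithin A at 40 µM over 24 h (3 arrays) were compared with control cells (3 arrays), which the titles call untreated and the treatment protocol gives as saline, over that time. Both groups were grown in F12 medium with serum. Gut bacteria form urolithin A from ellagic acid and ellagitannins of food; its solvent is not given in the sources used here. All values are log2 values that were set to a median of 0 over the 3 control arrays, so they show differences between arrays and no levels. For this reason the label LNCaP could not be checked against the levels of prostate markers. Whether a group's 3 arrays stand for separate cultures is not stated in the labels, so the p-values reflect no more than array-to-array spread, possibly technical, and the number of arrays limits the precision.

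Polyamines are small, positively charged molecules that bind nucleic acids and that dividing cells need. Ornithine decarboxylase makes putrescine from ornithine, and spermidine synthase and spermine synthase then add aminopropyl groups taken from decarboxylated S-adenosylmethionine. Breakdown runs through acetylation by SAT1 and oxidation by PAOX, or through direct oxidation of spermine by SMOX. Antizymes bind ornithine decarboxylase and send it to the proteasome, and the antizyme inhibitor AZIN1 takes antizyme away from it. The prostate is known for making and secreting very large amounts of spermine.

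After urolithin A, 3 of the 10 genes fell, all on the side of synthesis: SMS by 0.43, AMD1 by 0.37 and AZIN1 by 0.34 on the log2 scale. These are falls of 1.35-fold, 1.29-fold and 1.27-fold. Those of SMS and AZIN1 rest on probe sets named _s_at or _x_at, described below. With such probe sets left out, their log2 changes were -0.05 and -0.06 and neither passed, while AMD1 kept its call. ODC1, SRM, the 3 genes of breakdown and both antizymes did not pass. Over all genes 10.2% passed, 5.31% lower and 4.85% higher, at an adjusted p under 0.05 (limma with Benjamini-Hochberg adjustment over 18239 genes). No member was higher by that test; 1 of the 10, OAZ2, was higher at an unadjusted p under 0.05, and 5 were lower, while 12.5% of all genes were higher and 11.5% lower by that mark. The median log2 change was -0.34 over the 5 genes of synthesis and 0.12 over the 3 of breakdown, beside 0.01 over all genes. The medians of synthesis and breakdown are the changes of AZIN1 and SMOX. The members were chosen with earlier results of these data known, so these counts and medians beside all genes are a description and no test. In RNA from many cells, fewer cells of a kind and less RNA per cell cannot be told apart. By the size of the change, AZIN1, AMD1 and SMS stood above 90.6%, 91.7% and 94.4% of all genes. When the arrays were scaled on 9 hybridization controls, whose mean was -0.0040, -0.26 and 0.16 in urolithin A arrays and 0.0088, 0.03 and -0.05 in control arrays, none of the 3 calls held (adjusted p = 0.214 for SMS, 0.416 for AMD1 and 0.507 for AZIN1). Their log2 changes there were -0.40, -0.33 and -0.31, and 2 members had an unadjusted p under 0.05, beside 11% of all genes.

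**Figure D1:**
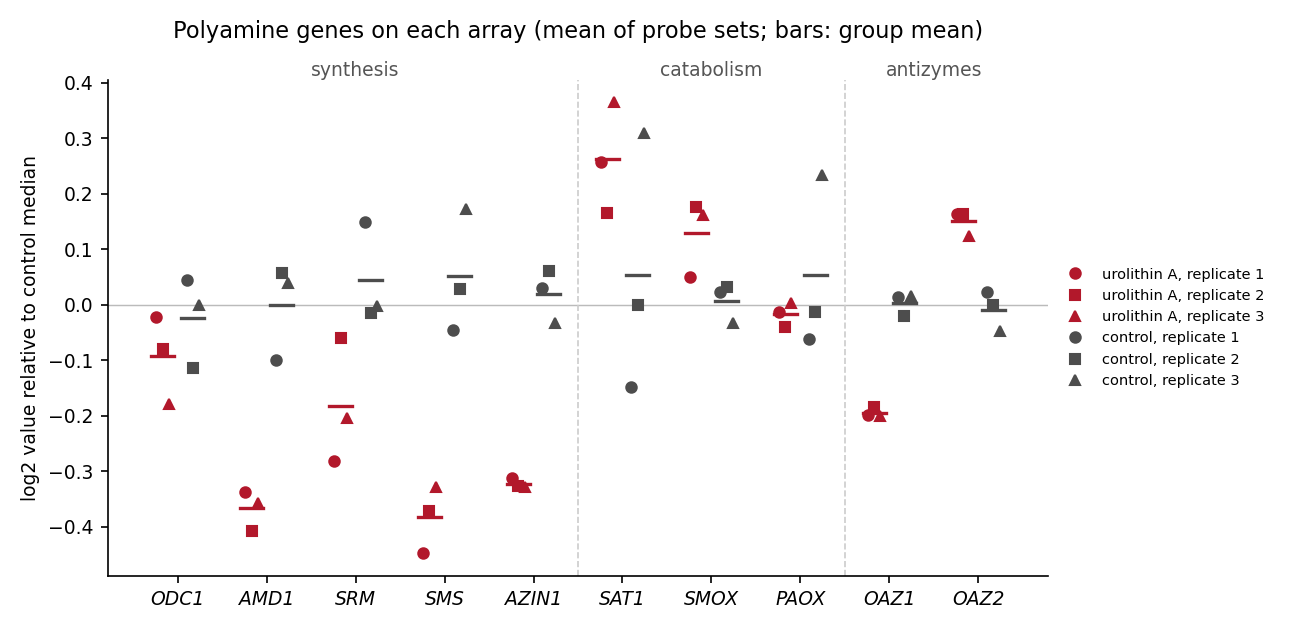
Log2 value relative to the control median (vertical axis) of each of the 10 genes on each array, as the mean of the gene's probe sets; symbols mark the replicate and horizontal bars the group means. For AMD1, SMS and AZIN1 the 3 urolithin A arrays lie between -0.45 and -0.31, below all control arrays, while for ODC1, SAT1 and PAOX the groups overlap.

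AMD1 codes for S-adenosylmethionine decarboxylase, the enzyme that provides the aminopropyl donor for both later steps. Its values were -0.34, -0.41 and -0.36 in urolithin A replicates 1, 2 and 3, against -0.10, 0.06 and 0.04 in control replicates 1, 2 and 3. All urolithin A arrays lay below all controls. The log2 change was -0.37 (SE 0.07, adjusted p = 0.0134). Each of its 7 probe sets separated the groups in the same direction, with log2 changes between -0.48 and -0.20, and 5 of them passed on their own. Without control replicate 2 the call of AMD1 ended (log2 change -0.34, adjusted p = 0.0539).

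SMS codes for spermine synthase, which makes spermine from spermidine. It stood at -0.45, -0.37 and -0.33 in the urolithin A arrays, against -0.05, 0.03 and 0.17 in the controls, again with no overlap. The log2 change was -0.43 (SE 0.08, adjusted p = 0.0106). Of its 3 probe sets 2 fell. Probe sets 11716139_s_at and 11716140_x_at fell by 0.59 and 0.66 on the log2 scale (adjusted p = 0.0119 and 0.0102 over all probe sets), whereas 11761617_at had a log2 change of -0.05 (SE 0.11) and overlapping groups. The change of 11761617_at lay above the mean of the other two by 0.57 on the log2 scale (SE 0.14), which did not pass (adjusted p = 0.0651).

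SRM, the spermidine synthase gene, had -0.28, -0.06 and -0.20 in urolithin A arrays and 0.15, -0.01 and -0.0025 in control arrays. The groups did not overlap, but urolithin A replicate 2 lay close to the controls, and with a log2 change of -0.23 (SE 0.08) SRM missed the threshold (adjusted p = 0.13). Groups failed to overlap for 7 of the 10 members, 5 lower and 2 higher, while by this mark 29.3% of all genes were apart, 13.7% lower and 15.6% higher. Both probe sets of SRM gave similar log2 changes, -0.24 and -0.21.

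ODC1 codes for ornithine decarboxylase, the enzyme that starts the pathway and the best known target of polyamine feedback. It had -0.02, -0.08 and -0.18 in urolithin A arrays and 0.04, -0.11 and 0 in control arrays. The groups overlapped, and the log2 change of -0.07 (SE 0.07, adjusted p = 0.644) had a 95% interval of -0.24 to 0.10. Only 1 probe set is listed for ODC1 alone, so no second reading of this gene was available. A fall of the size seen in AMD1, SMS or AZIN1 lies outside that interval.

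AZIN1 resembles ornithine decarboxylase, has no enzyme activity, and protects the enzyme by binding antizyme. Its mean over probe sets was -0.31, -0.33 and -0.33 in urolithin A arrays and 0.03, 0.06 and -0.03 in controls (log2 change -0.34, SE 0.06, adjusted p = 0.0114). Its 2 probe sets did not behave alike. Probe set 11725106_s_at read -0.67, -0.54 and -0.58 in urolithin A arrays, against 0, 0.12 and -0.04 in control arrays, a fall of 1.54-fold (log2 change -0.63, adjusted p = 0.00406). Probe set 11739093_a_at read 0.04, -0.11 and -0.07 in urolithin A arrays, against 0.06, 0 and -0.03 in control arrays, a log2 change of -0.06 (SE 0.09) with overlapping groups. The gap between them was -0.57 on the log2 scale (SE 0.11) and passed in a test of each probe set against the others of its gene (adjusted p = 0.0294).

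In that test, run after the values had been seen, 3.69% of 34042 probe sets passed, and 2 of 32 from the polyamine genes, 1 in AZIN1 and 1 in SAT1. Neither passed in any of the 6 fits that left out an array, at adjusted p from 0.0521 to 0.111. Which transcripts each probe set detects was not examined. Names ending in _s_at or _x_at mark probe sets whose probes can match more than a single transcript cluster. With these left out, AMD1 kept its call through its 1 remaining probe set (log2 change -0.46, adjusted p = 0.0128), while SMS and AZIN1 stood at -0.05 and -0.06 and did not pass (adjusted p = 0.826 and 0.727).

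**Figure D2:**
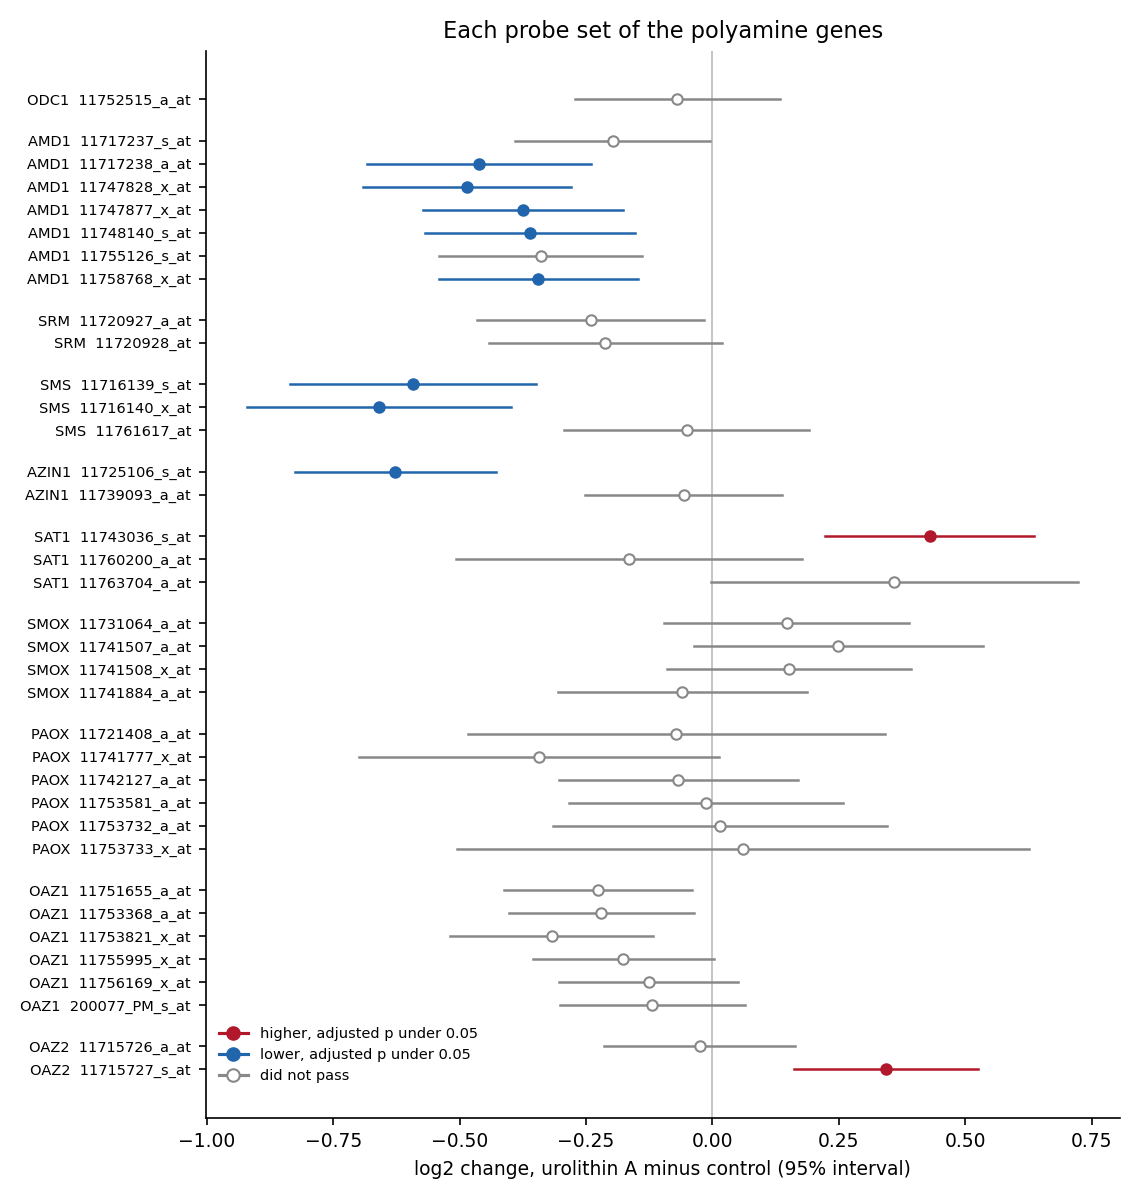
Log2 change, urolithin A minus control (horizontal axis), of each of the 36 probe sets, with the 95% interval from limma; filled points passed at an adjusted p under 0.05 over all probe sets. All 7 probe sets of AMD1, of which 5 passed, and all 6 of OAZ1, of which none passed, lie below 0. SMS, AZIN1, SAT1 and OAZ2 also each have probe sets that passed and others that did not.

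SAT1 codes for the acetyltransferase that starts polyamine breakdown and export, a gene that polyamines themselves induce. It read 0.26, 0.16 and 0.36 in urolithin A arrays and -0.15, 0 and 0.31 in controls, so control replicate 3 reached into the urolithin A range. At a log2 change of 0.21 (SE 0.12), SAT1 missed the threshold (adjusted p = 0.331), and its 95% interval ran from -0.06 to 0.47. Replicate 3 was the highest array in either group for SAT1. Those 2 arrays also had the lowest 18S ribosomal RNA readings, -0.46 in urolithin A replicate 3 and -0.42 in control replicate 3, and the part of this in the SAT1 values was not tested. Without control replicate 3 the log2 change of SAT1 was 0.34 (adjusted p = 0.0744).

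Of the 3 probe sets of SAT1, 1 rose. Probe set 11743036_s_at had 0.44, 0.36 and 0.48 in urolithin A arrays, against -0.11, 0 and 0.10 in control arrays, a rise of 1.35-fold (log2 change 0.43, adjusted p = 0.0233). Probe set 11763704_a_at had a log2 change of 0.36 with overlapping groups (adjusted p = 0.225). Probe set 11760200_a_at had 0.09, -0.16 and 0.06 in urolithin A arrays and -0.02, 0 and 0.51 in control arrays, a log2 change of -0.16 (SE 0.15). It lay below the mean of the other two by a log2 difference of -0.56 (SE 0.11, adjusted p = 0.0374). Over all probe sets 8.41% passed, 4.01% higher and 4.4% lower. Of the 36 probe sets of the polyamine genes 2 were higher and 8 lower, 5 of these in AMD1, and probe sets of a gene read the same gene's transcripts. Groups were apart in 2 of the 36 upward and 18 downward, while 27.9% of all probe sets were apart, 14.4% higher and 13.5% lower.

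SMOX codes for spermine oxidase, which turns spermine back into spermidine and releases hydrogen peroxide. Its readings were 0.05, 0.18 and 0.16 in urolithin A arrays and 0.02, 0.03 and -0.03 in control arrays. The groups did not overlap, yet the log2 change of 0.12 (SE 0.07) did not pass (adjusted p = 0.317), and for each of its 4 probe sets alone the groups overlapped. PAOX codes for the peroxisomal oxidase of acetylated polyamines. Its readings were -0.01, -0.04 and 0.0030 in urolithin A arrays and -0.06, -0.01 and 0.23 in controls, and the change of -0.07 (SE 0.09) did not pass (adjusted p = 0.697). The direction of PAOX turned without control replicate 3, its highest array (log2 change 0.02). Its 6 probe sets ranged from -0.34 to 0.06 in log2 change, and none of them passed.

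The antizymes did not pass, and their means lay on opposite sides of 0. OAZ1, the antizyme found in nearly all tissues, read -0.20, -0.18 and -0.20 in urolithin A arrays and 0.01, -0.02 and 0.02 in controls. These arrays were tightly grouped and did not overlap. Its log2 change of -0.20 (SE 0.06, adjusted p = 0.0764) did not pass with limma's moderated spread and did without moderation (adjusted p = 0.0278). None of the 6 probe sets of OAZ1 passed on its own, and all 6 had the urolithin A arrays below the controls, with log2 changes from -0.32 to -0.12.

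OAZ2 codes for the second widely expressed antizyme. It read 0.16, 0.16 and 0.12 in urolithin A arrays and 0.02, -0.0010 and -0.05 in control arrays, and its change of 0.16 (SE 0.06) did not pass (adjusted p = 0.151). Of its 2 probe sets 1 rose. Probe set 11715727_s_at read 0.38, 0.34 and 0.32 in urolithin A arrays, against 0.04, -0.04 and 0 in control arrays, and rose 1.27-fold (log2 change 0.34, adjusted p = 0.0337). Probe set 11715726_a_at had a log2 change of -0.03 (SE 0.08), and the difference between them did not pass (adjusted p = 0.0716).

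Synthesis and breakdown were also set side by side on each array, as medians over their genes. The median over the 5 synthesis genes was -0.31, -0.33 and -0.33 in urolithin A replicates 1, 2 and 3, against 0.03, 0.03 and 0 in the controls. In each urolithin A array this median was the value of AZIN1, whose probe sets did not behave alike. Over the 3 genes of breakdown it was 0.05, 0.16 and 0.16 in urolithin A arrays, against -0.06, 0 and 0.23 in the controls. The synthesis medians of the groups did not overlap, though the values of ODC1 alone did, whereas control replicate 3 had the highest median of breakdown genes of all 6 arrays. Synthesis minus breakdown, as medians of the genes' log2 changes, came to -0.46, which is the change of AZIN1 minus that of SMOX. It came to -0.17 when probe sets named _s_at or _x_at were left out. No p-value is given for these medians because the genes were chosen with results known.

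**Figure D3:**
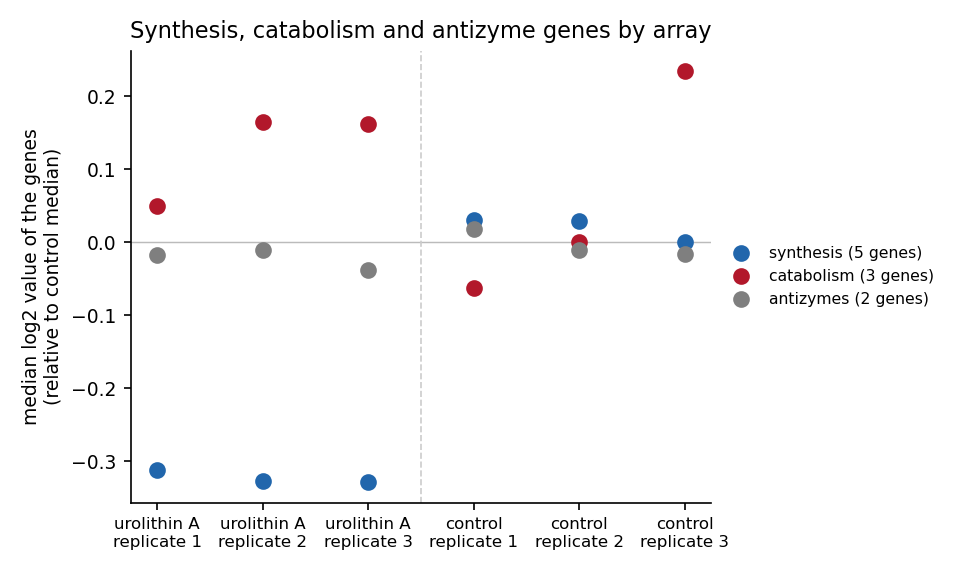
Median log2 value relative to the control median (vertical axis) of the synthesis, breakdown (catabolism) and antizyme genes on each of the 6 arrays. The synthesis median lies between -0.33 and -0.31 in the 3 urolithin A arrays, where it is the value of AZIN1. In the controls it lies between 0 and 0.03, and the highest breakdown median, 0.23, is that of control replicate 3.

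The regions around the transcription starts of 4 synthesis genes are shown, AMD1 and SMS because they fell, SRM and ODC1 because they did not pass. The sequences are those of RefSeq on build GRCh38.p14, from 250 bases before to 50 after a start, written 5′ to 3′ along the gene's strand. Capitals mark CACGTG, the E-box that MYC and related factors bind and a known feature of ODC1, and GGGCGG or its reverse complement, the GC box that SP1 binds. AMD1 has 3 entries and ODC1 has 2, and the entry of ODC1 shown is the one with CACGTG.
AMD1, chr6:110874535-110874834, plus strand: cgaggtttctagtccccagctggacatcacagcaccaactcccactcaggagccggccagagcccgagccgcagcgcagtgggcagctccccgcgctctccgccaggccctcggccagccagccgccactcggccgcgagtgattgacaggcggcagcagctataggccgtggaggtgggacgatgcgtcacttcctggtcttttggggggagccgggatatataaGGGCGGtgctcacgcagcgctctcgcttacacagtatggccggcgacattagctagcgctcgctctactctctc
SMS, chrX:21940459-21940758, plus strand: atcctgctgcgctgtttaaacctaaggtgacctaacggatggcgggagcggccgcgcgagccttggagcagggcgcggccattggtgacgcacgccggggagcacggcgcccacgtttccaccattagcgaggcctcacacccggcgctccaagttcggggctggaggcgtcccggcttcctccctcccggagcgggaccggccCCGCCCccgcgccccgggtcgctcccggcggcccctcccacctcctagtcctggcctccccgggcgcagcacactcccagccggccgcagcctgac
SRM, chr1:11059969-11060268, minus strand: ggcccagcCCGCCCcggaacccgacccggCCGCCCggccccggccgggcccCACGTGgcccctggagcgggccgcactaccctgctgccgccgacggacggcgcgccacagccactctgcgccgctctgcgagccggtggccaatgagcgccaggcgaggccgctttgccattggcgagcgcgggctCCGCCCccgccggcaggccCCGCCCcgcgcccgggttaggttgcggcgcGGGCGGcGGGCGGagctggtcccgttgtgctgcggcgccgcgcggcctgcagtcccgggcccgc
ODC1, chr2:10447963-10448262, minus strand: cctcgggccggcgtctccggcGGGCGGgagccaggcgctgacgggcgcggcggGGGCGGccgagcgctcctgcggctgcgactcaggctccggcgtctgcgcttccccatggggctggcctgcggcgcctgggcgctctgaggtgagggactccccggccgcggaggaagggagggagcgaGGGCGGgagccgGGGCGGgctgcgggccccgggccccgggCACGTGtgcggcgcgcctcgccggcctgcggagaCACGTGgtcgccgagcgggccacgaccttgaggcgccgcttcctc
CACGTG was found in no entry of AMD1 and not in that of SMS, once in that of SRM and 2 times in the shown entry of ODC1. The other entry of ODC1 lacks it. Among 6 genes of methylthioadenosine salvage, described below, 3 hold CACGTG: ENOPH1 and ADI1, which fell, and MRI1, which did not pass. The motif was searched on both strands, on which it reads the same, and 7.26% of all 35116 promoters of the table hold it. GGGCGG, searched on both strands, was found in the entries of all 4 genes and in 45% of all promoters. Entries were searched for 7 members, of which 2 hold CACGTG and 6 hold GGGCGG, while that of SAT1 holds neither. These are counts of genes with a match in any of their entries, 10 entries in all. The shares of 7.26% and 45% are of single promoters, so the units differ. AZIN1, which fell, and SMOX and PAOX were not searched. A match or its lack describes these letters in this window alone.

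Around the 10 genes stand those that supply their substrates, recycle their by-product, move polyamines or use them. Of 45 genes listed for these roles 43 were measured, and the test called 8 of them lower and 1 higher and left 34 uncalled, where 5.31% of all genes were lower and 4.85% higher. The median over the 43 was -0.04 on the log2 scale. The largest share of calls was in the salvage of methylthioadenosine, the by-product that spermidine synthase and spermine synthase release with each aminopropyl group they transfer. The salvage pathway turns it back into methionine. Among its 6 measured genes 5 fell and MRI1 did not pass (median log2 change -0.27), and the urolithin A arrays lay below all controls in the same 5. Over all genes 5.31% were called lower, and 13.7% had the urolithin A arrays below all controls. The lists were chosen with earlier results of these data known, so the counts beside these shares are a description and no test.

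MTAP, the phosphorylase that opens this salvage, read -0.36, -0.48 and -0.42 in urolithin A arrays and -0.05, 0.03 and 0.03 in controls (log2 change -0.42, SE 0.07, adjusted p = 0.0063). The groups were well apart, and 4 of its 6 probe sets fell on their own. APIP, the dehydratase of a middle step, read -0.53, -0.49 and -0.52 in urolithin A arrays, against -0.01, -0.02 and 0.08 in controls. Its fall of 1.44-fold (log2 change -0.53, SE 0.06, adjusted p = 0.00186) had the smallest p of the salvage genes, and both its probe sets fell. The enolase-phosphatase gene ENOPH1, the dioxygenase gene ADI1 and GOT1, an aspartate aminotransferase that can carry out the closing transamination, fell by 0.24, 0.23 and 0.30 on the log2 scale (adjusted p = 0.0476, 0.0414 and 0.0323). None of the probe sets of these last genes passed on its own. The calls of ENOPH1 and ADI1 ended in each of the 6 fits without an array, at adjusted p from 0.0961 to 0.145, and that of GOT1 in 5 of them, at up to 0.105, all but the fit without control replicate 2 (adjusted p = 0.0455). MRI1, the isomerase between MTAP and APIP, stood 0.14 higher on the log2 scale, which did not pass (SE 0.08, adjusted p = 0.327).

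**Figure D4:**
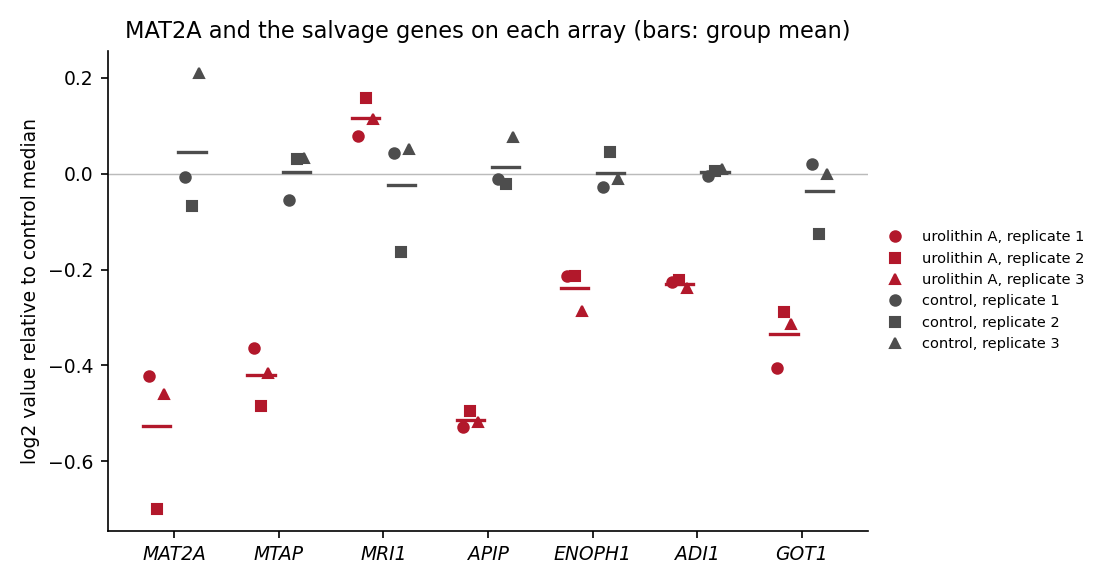
Log2 value relative to the control median (vertical axis) of MAT2A and the 6 salvage genes on each array, as the mean of the gene's probe sets; symbols mark the replicate and horizontal bars the group means. In MAT2A, MTAP, APIP, ENOPH1, ADI1 and GOT1 all urolithin A arrays lie below all control arrays, and in MRI1 above them.

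S-adenosylmethionine, which AMD1 decarboxylates, is made by methionine adenosyltransferase. MAT2A, the catalytic subunit outside the liver, read -0.42, -0.70 and -0.46 in urolithin A arrays and -0.01, -0.07 and 0.21 in controls. It fell 1.49-fold (log2 change -0.57, SE 0.10, adjusted p = 0.0106), with 4 of its 6 probe sets lower on their own. Its regulatory subunit MAT2B stood at a log2 change of -0.04 (adjusted p = 0.835). AHCYL1, a relative of S-adenosylhomocysteine hydrolase that acts on calcium release channels, rose 1.21-fold (log2 change 0.27, SE 0.07, adjusted p = 0.0344). It read 0.25, 0.23 and 0.30 in urolithin A arrays and -0.08, 0.0086 and 0.04 in controls. The rise passed in 0 of the 6 fits without an array, at adjusted p from 0.0618 to 0.112. Of the 6 genes of this list 1 rose, 1 fell and 4 did not pass.

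None of 8 genes listed under ornithine supply passed. They were ARG1, ARG2, OAT, AGMAT, AZIN2, ALDH18A1, OTC and GATM, of which AGMAT and AZIN2 do not themselves make ornithine. At an unadjusted p under 0.05, 2 of the 8 were lower, beside 11.5% of all genes. ARG2, the mitochondrial arginase, had the smallest p of that list, at a log2 change of -0.36 (adjusted p = 0.0788), and its groups did not overlap. It passed without urolithin A replicate 2, its highest urolithin A array (adjusted p = 0.0291), and in no other fit without an array (adjusted p from 0.106 to 0.217). Of 11 measured genes of polyamine and cationic amino acid transport none passed, and at an unadjusted p under 0.05, 1 was higher and 1 lower, beside 12.5% and 11.5% of all genes. The arginine and ornithine carrier SLC7A2 had the smallest p there, at a log2 change of -0.31 (adjusted p = 0.149) with overlapping groups. It passed without control replicate 1 (adjusted p = 0.0157) and in no other fit without an array (adjusted p from 0.226 to 0.351). ATP13A2, the lysosomal exporter of polyamines, had a log2 change of 0.18 (adjusted p = 0.172).

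Among 7 other genes of breakdown and antizyme, OAZ3 fell and 6 did not pass. OAZ3, an antizyme known from the testis, was read by a single probe set, at -0.56, -0.70 and -1.03 in urolithin A arrays and 0.11, 0 and -0.25 in controls (log2 change -0.72, SE 0.13, adjusted p = 0.0125). The diamine oxidase gene AOC1 had a log2 change of -0.34 and groups that did not overlap, but missed the threshold (adjusted p = 0.0511). Spermidine is also the source of hypusine, the modified lysine that the translation factor eIF5A needs. Of 5 genes of that route 1 fell and 4 did not pass. DOHH, the hydroxylase that completes hypusine, read -0.29, -0.32 and -0.42 in urolithin A arrays and 0.08, -0.01 and -0.0062 in controls (log2 change -0.36, SE 0.07, adjusted p = 0.013). The first enzyme, DHPS, had a log2 change of 0.05, and EIF5A itself -0.17 (adjusted p = 0.131). Scaled on the hybridization controls, MAT2A and OAZ3 passed (adjusted p = 0.0326 and 0.00177), while the 5 salvage genes, DOHH and AHCYL1 kept their direction but not their call, at adjusted p from 0.0656 for APIP to 0.888 for ADI1. The log2 changes there were -0.49 for APIP, -0.39 for MTAP, -0.27 for GOT1, -0.21 for ENOPH1, -0.20 for ADI1, -0.33 for DOHH and 0.30 for AHCYL1. Without limma's moderation MAT2A, OAZ3 and DOHH missed the threshold (adjusted p = 0.103, 0.132 and 0.0537). They also missed it without the arrays of highest HLA-DRA, described below (adjusted p = 0.058, 0.0657 and 0.111). Without the arrays of lowest 18S, MAT2A and DOHH missed it (adjusted p = 0.05003 and 0.079) and OAZ3 passed (adjusted p = 0.013).

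**Figure D5:**
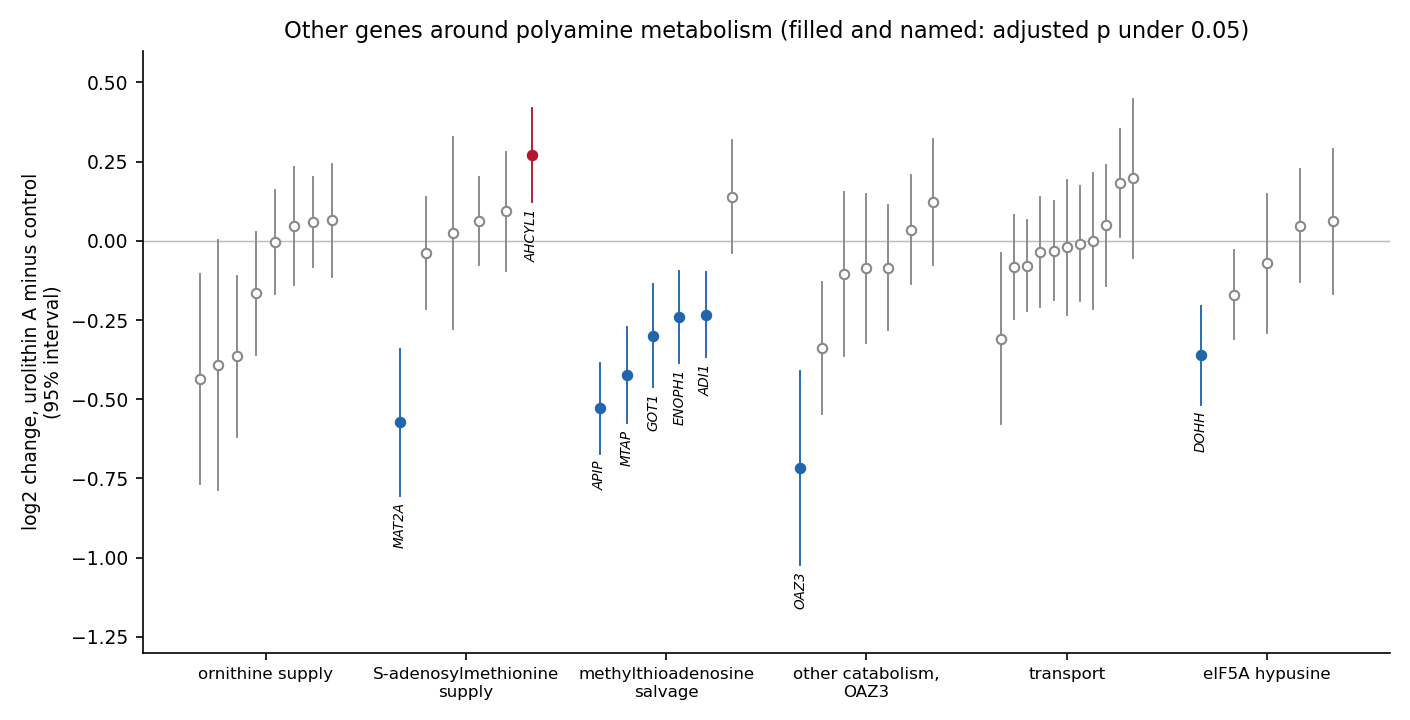
Log2 change, urolithin A minus control (vertical axis), of 43 genes in 6 lists around polyamine metabolism, with 95% intervals from limma; filled and named points passed at an adjusted p under 0.05. Of the 9 named genes 5 stand in the salvage list, and AHCYL1 alone is above 0.

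Across the arrays, markers of other cell types did not pass: 0 of 12 measured basal, stromal and leukocyte markers, and 0 at an unadjusted p under 0.05 (limma). Of 7 measured markers of prostate luminal cells, the kind LNCaP derives from, 1 rose and 3 fell. KLK2, TMPRSS2 and KLK3 fell (log2 changes -2.07, -1.98 and -0.98) and FOLH1 rose (0.31). HOXB13, KRT8 and KRT18 did not pass (0.05, 0.13 and -0.07). The part of these markers in the polyamine results was not tested. HLA-DRA, a leukocyte marker, was uneven, at -0.02, 1.17 and 3.09 in urolithin A arrays and 1.01, 0.03 and -0.02 in control arrays. Without urolithin A replicate 3 and control replicate 1, the arrays of highest HLA-DRA in each group, SMS and AMD1 passed (adjusted p = 0.0387 and 0.0489) and AZIN1 did not (log2 change -0.33, adjusted p = 0.0925). Without replicate 3 of both groups, where 18S readings were lowest, the log2 changes of SMS, AZIN1 and AMD1 were -0.40, -0.37 and -0.35 and none passed (adjusted p = 0.052, 0.0586 and 0.0893); 4 members had an unadjusted p under 0.05 there, beside 20.4% of all genes. With 2 arrays in each group, these fits called 705 and 841 genes, against 1854 with all arrays.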

How the data were processed

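RNA of 3 urolithin A and 3 control samples of LNCaP cells was hybridised to U219 arrays, with groups and replicate numbers from the titles. RMA is named in the submitters' processing notes, without a version, and the deposited values are on a log2 scale, for 49386 probe sets. In each of them the control arrays have a median of 0, so the authors' table was centred on it; its base is stated nowhere in the sources used here and was taken as 2, as RMA gives.

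Probe sets were named through the platform annotation, with 45253 listed for 1 symbol, 1327 for several and 2713 for none beside 93 control probe sets. A gene's value was the mean of its probe sets with that single symbol. Genes, and all 49293 probe sets alone, entered a linear model with treatment as the only term (limma 3.58.1, R 4.3.3, moderated two-sided tests), adjusted by Benjamini-Hochberg over all features at a threshold of 0.05. The fit was checked on simulated data. Members and lists were chosen with earlier results of these data known. Named were all members, every listed gene that passed, and the gene of smallest p in lists with none. MAT2B, MRI1, ATP13A2, AOC1, DHPS, EIF5A, HLA-DRA and the luminal markers were named after their values were seen. Alternatives varied the summary and filter of probe sets, the scaling, the prior, the threshold, array weights, a replicate block and the arrays included. No batch or scan date was used here.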

Additional observations from a re-analysis of the deposited data

How the results depend on the processing

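With all arrays, 3 members were lower and 0 higher, 8 listed pathway genes were lower and 1 higher, 8 member probe sets were lower and 2 higher, and 2 probe sets differed from the others of their gene. Over the 6 fits that each left out an array, these came to 2 to 3 members lower and 0 higher, 5 to 7 pathway genes lower and 0 higher, 3 to 6 probe sets lower and 0 to 1 higher, and 0 differing, with synthesis minus breakdown between -0.51 and -0.44; these fits called 1063 to 1309 genes. The labels do not say whether replicate numbers pair the arrays. Deviations of same-numbered arrays correlated at 0.08, 0.02 and 0.20. The same-numbered control was the best match for urolithin A replicates 1 and 3, while urolithin A replicate 2 correlated better with control replicate 1 (0.05). With so few arrays these correlations do not settle a pairing, and the main fit used none. With the replicate block, 3 members were lower, 9 pathway genes lower and 0 higher, 5 probe sets lower, 1 higher and 1 differing, and 1863 genes were called in place of 1854; ARG2 passed there (adjusted p = 0.0266), and ENOPH1, ADI1, GOT1 and AHCYL1 did not (0.0715, 0.072, 0.0592 and 0.0516). Scaling on hybridization controls gave 0 members lower, 2 pathway genes lower and 0 higher, and 3 probe sets lower and 0 higher (646 genes called). A trended and robust prior gave 5 pathway genes lower and 0 higher, 5 probe sets lower and 0 higher, and 0 differing (1292 genes). Without moderation there were 3 pathway genes lower and 0 higher, 1 probe set lower and 1 higher, and 0 differing (560 genes); AMD1 and SMS missed the threshold (adjusted p = 0.0592 and 0.0707). At a threshold of 0.01 there were 0 members lower, 2 pathway genes lower and 0 higher, 1 probe set lower and 0 higher, and 0 differing (642 genes). Without all probe sets whose names mark shared sequence or several transcripts, only SRM and SMS were left, with 0 members lower, 1 pathway gene lower and 0 higher (509 of 8369 genes). The next settings, 3 in number, were chosen after seeing the data. Without _s_at and _x_at probe sets, 1 member was lower, 0 pathway genes were higher, synthesis minus breakdown was -0.17 and the log2 change of OAZ2 turned to -0.025 (1520 of 16777 genes). Without the arrays of lowest 18S, 0 members and 2 pathway genes were lower, 0 pathway genes higher, 1 probe set lower and 0 higher, 0 differed and the log2 change of PAOX turned to 0.011. Without the arrays of highest HLA-DRA, 2 members and 3 pathway genes were lower, 0 pathway genes higher, 2 probe sets lower and 0 higher, 0 differed and ODC1 turned to 0.0069. Over the fits without an array the log2 change of PAOX ran from -0.13 to 0.021, above 0 in the fit without control replicate 3. For single genes and probe set differences, 276 values kept direction and side of the threshold, 109 lost the call, 5 gained it and 4 turned direction. The 276 include genes without a call in the main fit, such as ODC1 and SRM, which had none to lose. Of the called members, AMD1 and AZIN1 each kept the call in 12 of 17 alternatives and SMS in 12 of 18. Among called pathway genes this ran from 16 of 17 for APIP to 3 of 18 for AHCYL1. Where calls were lost with fewer arrays, less data entered the fit. With fewer probe sets the log2 changes themselves could move, as in SMS and AZIN1, at -0.05 and -0.06 without _s_at and _x_at probe sets. The cause of the lost calls was not tested in any setting. The centred table holds no signal over background, so weakly read probe sets could not be told from others.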
